A study of Mus musculus with 9 samples.

Results

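Retinas of IL-19 knockout mice with oxygen-induced retinopathy (OIR KO, 3 libraries) were compared with wild-type retinas from room air (RA WT, 3 libraries). Oxygen exposure and genotype both differ between these groups, so their parts in any difference cannot be told apart here. The comparison took 6 of the 9 libraries of the series and 15678 of 25108 table entries, those with at least 0.5 FPKM in at least 3 of the 9 libraries. FPKM counts the fragments of a gene scaled to its length and to the mapped fragments of the library. All mice were C57BL/6, with no substrain named, and were taken at postnatal day 17. The remaining 3 libraries were wild-type retinas with retinopathy (OIR WT), whose values are set beside those of OIR KO for some of the genes and lists. No knockout retina from room air was analysed here. The labels do not describe the knockout allele, the hours or dose of oxygen, the sex of the pups or how many retinas went into a library. They name the libraries of a group as separate samples and say nothing of separate animals, so p-values reflect only how far these samples spread. By the Y-linked values given below, RA WT 2 and OIR KO 1 came at least in part from other animals than the rest of their groups. For the other libraries it is unknown whether the spread is technical.

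In this model, newborn mice breathe high oxygen, which halts growth of the retinal vessels and removes part of them, and a later return to room air leaves the central retina short of oxygen. Cells short of oxygen stabilise hypoxia-inducible factors, which switch on genes of glucose use, red cell supply and vessel growth, among them the growth factor VEGF. Endothelial tip cells then lead new sprouts, some of which leave the retina as tufts, while Müller glia, astrocytes and microglia become reactive. IL-19 is a cytokine of the interleukin-10 family that signals through a receptor made of IL-20RA and IL-20RB and the factor STAT3, and it is known from immune and vascular cells.

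Within groups, libraries correlated at r = 0.974 to 0.985 across genes, which are not independent replicates. Absolute depth is unknown, and relative depth, read from the spacing of low values, lay between 0.853 and 1.14 times the mean. On the leading principal component of the 15678 genes, with 47.2% of the variance, RA WT lay between -37.2 and -35.9, OIR KO 1, 2 and 3 at 7.96, 32.5 and -3.30, and OIR WT between 11.7 and 31.3. OIR KO 2 thus stood apart from OIR KO 1 and 3, on the far side from room air. Lens transcripts, summed over 16 genes, came to 83.6 FPKM in RA WT 1, to 50.1 FPKM in library OIR KO 2 and to 5.11 to 12.5 FPKM in the other 7. Y-linked transcripts had the value 0 in RA WT 2 and in OIR KO 1, and the Y-linked gene Ddx3y reached 6.80 FPKM in RA WT 3 and between 12.9 and 15.7 FPKM in the other 6. RA WT 2 and OIR KO 1 thus differed in sex, at least in part, from the other libraries of their groups. The tissue label was met by its markers, since all 26 rod, all 26 bipolar and all 18 cone markers listed passed the filter on low values.

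Il19, the targeted gene (chromosome 1 of GRCm38, from 130932656 to 130940115 on the minus strand), had a listed value of 0 in OIR KO 1, 2 and 3. It was also listed at 0 in RA WT 2 and RA WT 3 and in all OIR WT libraries, and stood at 0.0406 FPKM in RA WT 1. Its level therefore does not check the knockout label. The exact two-sided permutation test (p = 1, n = 3 a group) adds nothing, since values with a single library above 0 allow no other result. Without such ties the smallest possible p is 0.1. Il20ra, a chain of the IL-19 receptor, was at 0.625, 0.821 and 0.889 FPKM in RA WT 1 to 3 and at 0.367, 0.0903 and 0.524 FPKM in OIR KO 1 to 3. The groups did not overlap, but the difference did not pass the test (log2 -0.66, SE 0.21, adjusted p = 0.0788). Its partner chain Il20rb stayed under the filter in both groups, at 0.0973 to 0.397 FPKM in RA WT and 0.379 to 0.487 FPKM in OIR KO. Il10rb, a chain shared by receptors of the family, differed by log2 0.23 (adjusted p = 0.393). Il24, Il20, Il10 and Ifnl3, cytokines of the family, were listed at 0 throughout, and of 14 genes of the family only Il20ra and Il10rb could be tested. Of these 2 genes, 1 fell in OIR WT against RA WT, and 0 were called between the retinopathy groups. Without OIR KO 3, 1 of the 2 also fell in OIR KO against RA WT.

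Gene by gene, 1636 of 15678 genes, or 10.4%, differed between OIR KO and RA WT (limma, adjusted p under 0.05). Of these, 744 rose (4.75%) and 892 fell (5.69%), and 286 rose and 117 fell by at least 2-fold. The median log2 difference over all genes was 0.02. The values of the groups did not overlap in 5125 genes (32.7%), of which 2718 were higher and 2407 lower in OIR KO. All 1636 called genes were among these, so for a called gene the lack of overlap described below adds nothing to the call. The count of changed genes rested on several libraries: it was 711 without RA WT 3, 709 without OIR KO 1 and 725 without OIR KO 2. The risen genes then numbered 297, 284 and 298 and the fallen ones 414, 425 and 427, and the risen ones also dropped to 444 without RA WT 1 and 480 without RA WT 2. OIR KO 2 was the knockout library farthest from the room air mean in 513 of the 744 risen genes and 636 of the 892 fallen genes, or 69.0% and 71.3%, against 49.3% of all genes tested.

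The risen genes were led by Edn2, which encodes endothelin 2, a peptide released by stressed photoreceptors. It was at 0.555, 0.577 and 1.37 FPKM in RA WT 1 to 3 and at 38.8, 128 and 18.4 FPKM in OIR KO 1 to 3 (log2 5.15, SE 0.72, adjusted p = 0.00618). Every knockout library lay far above room air, although OIR KO 2 and OIR KO 3 lay far from each other. Ndufa4l2, a mitochondrial protein that is strongly induced by hypoxia, was at 4.13, 5.95 and 6.00 FPKM in RA WT and at 117, 135 and 83.1 FPKM in OIR KO (log2 4.25, SE 0.20, adjusted p = 3.02e-05). It was among the 5 risen genes of smallest p with an ordinary symbol, and its 3 knockout values were close together. Adm, the vasodilator peptide adrenomedullin, was at 0.565, 0.876 and 0.736 FPKM in RA WT and at 15.3, 34.6 and 9.86 FPKM in OIR KO (log2 3.88, SE 0.37, adjusted p = 0.00180). The others included A2m, a protease inhibitor of plasma (log2 3.30, adjusted p = 0.00861), C4b, a complement component (log2 3.14, adjusted p = 0.00222), Apln, the tip cell peptide apelin (log2 3.02, adjusted p = 0.00280), Prnd, the prion-like protein doppel (log2 2.87, adjusted p = 0.000868), and Esm1, the secreted tip cell proteoglycan endocan (log2 2.81, adjusted p = 0.0108). Lad1, a basement membrane anchor protein (log2 3.31, adjusted p = 0.0213), and its chromosomal neighbour Tnnt2, cardiac troponin T (log2 3.13, adjusted p = 0.0236), completed the 10 leading genes, which are shown by library in the plot of the genes of largest change. Their calls did not stand without each library: Lad1 was lost without OIR KO 1 or any single RA WT library (adjusted p = 0.0561 to 0.0649) and Tnnt2 without each of these or OIR KO 2 (0.0601 to 0.0759).

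**Figure D1:**
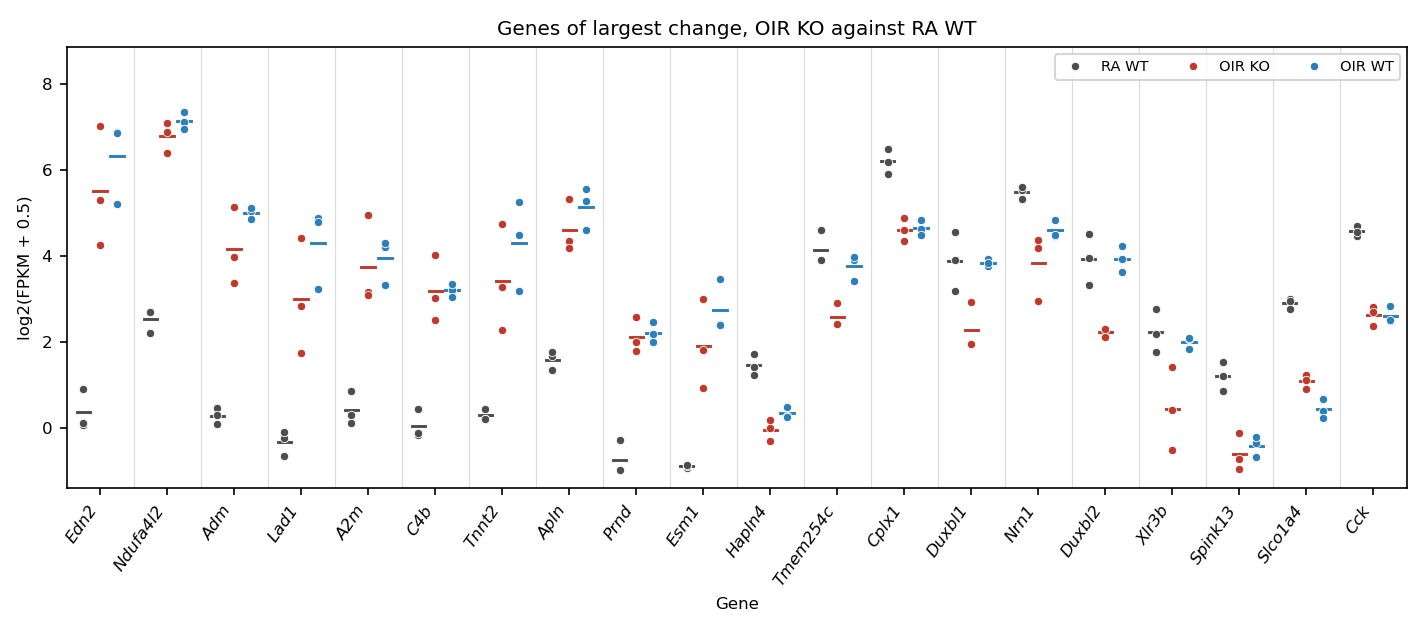
Level of the 10 risen and 10 fallen genes of largest change in OIR KO against RA WT, as log2(FPKM + 0.5), with 1 point per library and a line at the group mean (n = 3). The red OIR KO points lie clear of the grey RA WT points for each gene, as the choice of the genes required; the blue OIR WT points are given for comparison, and for Edn2 the OIR KO libraries run from 18.4 to 128 FPKM.

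The fallen genes were led by Cck, the neuropeptide cholecystokinin, which was at 25.4, 21.6 and 23.0 FPKM in RA WT 1 to 3 and at 4.66, 6.54 and 6.01 FPKM in OIR KO 1 to 3 (log2 -1.94, SE 0.14, adjusted p = 0.000439). Cck was among the 5 fallen genes of smallest p with an ordinary symbol, and the groups were far apart. Slco1a4, an organic anion transporter of brain and retinal capillaries, was at 6.27, 7.49 and 7.24 FPKM in RA WT and at 1.38, 1.86 and 1.67 FPKM in OIR KO (log2 -1.81, SE 0.15, adjusted p = 0.000868). Neuronal genes followed: Nrn1, the neurite-promoting protein neuritin (log2 -1.64, adjusted p = 0.0192), Cplx1, complexin 1 of the synaptic release machinery (log2 -1.59, adjusted p = 0.00190), and Hapln4, a link protein of perineuronal matrix (log2 -1.49, adjusted p = 0.00302). Leaving out RA WT 2 or RA WT 3 ended the call of Nrn1 (adjusted p = 0.0539 and 0.0678). Spink13, a predicted secreted protease inhibitor, had a log2 change of -1.81 (adjusted p = 0.00425). The other 4 of the 10, Xlr3b (log2 -1.80), Duxbl2 (-1.69), Duxbl1 (-1.60) and Tmem254c (-1.56), belong to families of near-identical copies, so that their single values are uncertain. Xlr3b was lost without RA WT 2, RA WT 3, OIR KO 1 or OIR KO 2 (adjusted p = 0.0640 to 0.117) and Duxbl1 without RA WT 1, RA WT 2, OIR KO 2 or OIR KO 3 (0.0578 to 0.103). Among the fallen genes of smallest p were also Cap2, an actin-binding protein, from 7.69 ± 0.708 to 2.84 ± 0.219 FPKM (SD, n = 3), and Nrsn1, a neuronal vesicle protein, from 47.6 ± 5.02 to 20.4 ± 1.80 FPKM.

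Lists of marker and pathway genes were described by how many of their tested members rose or fell, to be read against 4.75% and 5.69% of all genes tested. Counts at an unadjusted p under 0.05 (limma) are to be read against the shares of all genes tested, both directions together. These were 27.6% for OIR KO against RA WT and 9.91% for OIR KO against OIR WT. The plot of members called per list shows them. Tip cell genes (21 of 27), complement genes (10 of 17) and matrix genes (18 of 33) had the highest shares of risen members, and ganglion cell (14 of 23), amacrine (14 of 26) and horizontal cell genes (7 of 17) the highest shares of fallen members.

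**Figure D2:**
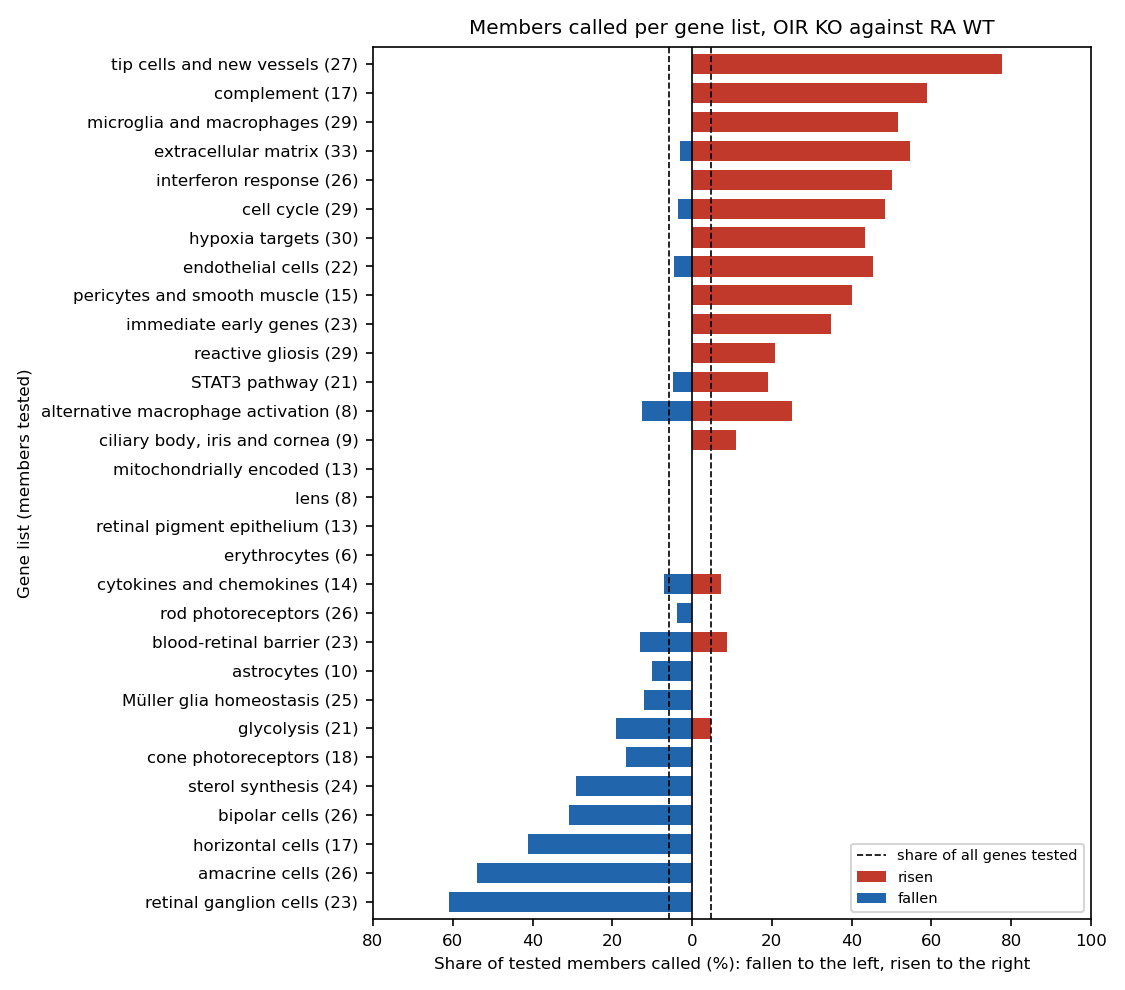
Share of the tested members of each gene list that rose (red, to the right) or fell (blue, to the left) in OIR KO against RA WT at an adjusted p under 0.05, with the number of members tested in parentheses. Dashed lines mark the shares over all 15678 genes, 4.75% risen and 5.69% fallen; tip cell genes reach 77.8% risen and ganglion cell genes 60.9% fallen.

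Hypoxia targets outside glycolysis were higher in OIR KO than in RA WT in 30 of 30 members, and 13 of them rose. Beside Ndufa4l2 and Adm, the risen members included Egln3, an oxygen-sensing prolyl hydroxylase (log2 1.99, SE 0.41, adjusted p = 0.0201). Egln3 was at 1.37, 1.75 and 2.02 FPKM in RA WT 1 to 3 and at 6.43, 17.0 and 5.01 FPKM in OIR KO 1 to 3, so that all knockout values were above room air with OIR KO 2 highest. Vegfa, the main growth factor of retinal vessels, was at 69.7, 69.2 and 62.4 FPKM in RA WT and at 191, 245 and 161 FPKM in OIR KO (log2 1.54, SE 0.14, adjusted p = 0.000868). The groups were well apart for Vegfa, and its call stood without each of the 6 libraries in turn. The 13 risen members became 8 without RA WT 1, OIR KO 1 or OIR KO 2 and 7 without RA WT 3. The call of Egln3 was lost without any single RA WT library (adjusted p = 0.0539 to 0.0603).

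The median log2 difference of the hypoxia targets from room air was 0.50 in OIR KO and 1.07 in OIR WT, where 27 of 30 rose; both groups share the RA WT libraries. Over all genes, 2503 (16.0%) changed in OIR WT against RA WT, 1261 upwards (8.04%) and 1242 downwards (7.92%). Set directly against each other, OIR KO lay below OIR WT in 27 of the 30 targets. Of these, 20 had an unadjusted p under 0.05, and only Bnip3, a mitophagy receptor, passed the adjusted test (limma), which called 21 of all genes (0.134%) between the retinopathy groups. Bnip3 was at 64.1, 65.4 and 68.5 FPKM in RA WT, at 81.4, 118 and 83.5 FPKM in OIR KO and at 178, 172 and 202 FPKM in OIR WT. All OIR KO values thus lay between the other groups, above room air (log2 0.49, adjusted p = 0.0498) and below wild-type retinopathy (log2 -0.98, adjusted p = 0.0377). The Bnip3 call against room air was lost without each library but OIR KO 3 (adjusted p = 0.0594 to 0.106), and that against OIR WT without each but OIR KO 2 (0.0678 to 0.171). By library, the median of the list over the RA WT mean was 0.46, 0.79 and 0.43 in OIR KO 1 to 3 and 1.10, 1.03 and 1.14 in OIR WT 1 to 3, so the groups did not overlap.

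**Figure D3:**
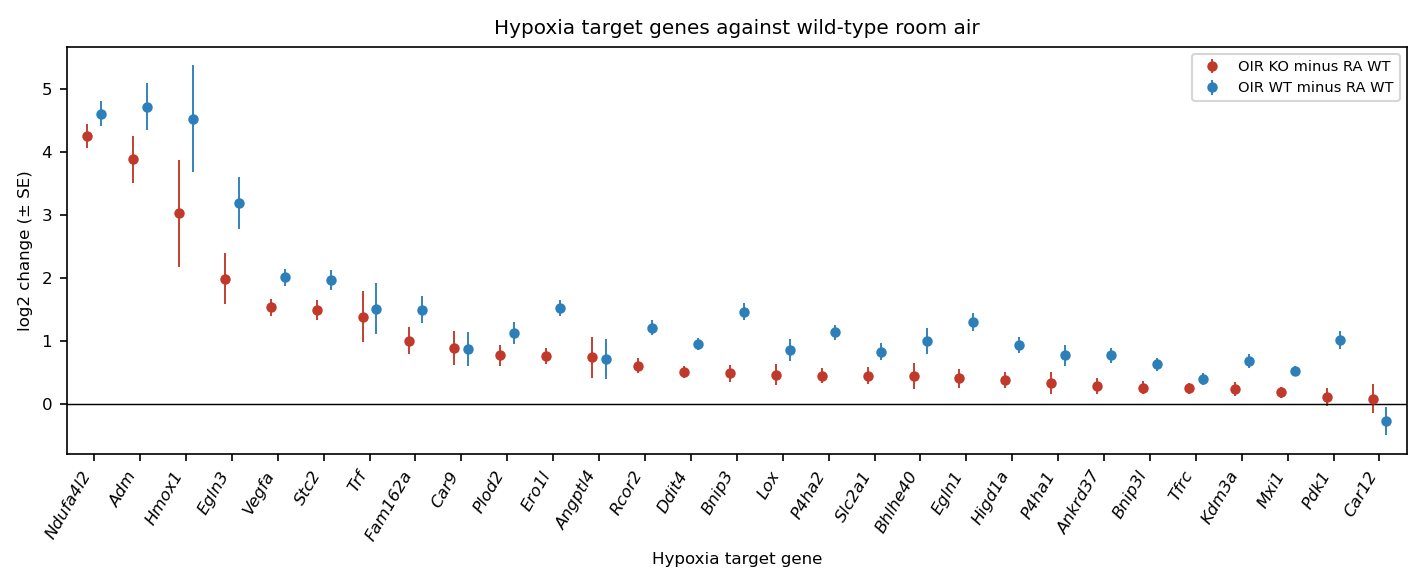
Log2 change of 29 of the 30 hypoxia targets against RA WT in OIR KO (red) and OIR WT (blue), with bars of 1 SE from the fit to all 9 libraries, ordered by the OIR KO value. The red points lie above 0 throughout, from 0.09 for Car12 to 4.25 for Ndufa4l2, and below the blue points in 26 of the genes shown; both changes share the RA WT libraries.

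Promoters of 3 members that rose in OIR KO are shown because hypoxia-inducible factors bind the letters ACGTG or GCGTG, the core of the hypoxia response element. Sequences are the 250 bases before the RefSeq start on GRCm38.p6, each 5′ to 3′ on the strand of its gene, and capitals mark matches on either strand (CACGT and CACGC are the same letters read from the other strand, and overlapping matches run together). They are those of Adm (chr7:110627407-110627656, plus strand), Egln3 (chr12:54203875-54204124, minus strand) and Bnip3 (chr7:138909507-138909756, minus strand).
Adm: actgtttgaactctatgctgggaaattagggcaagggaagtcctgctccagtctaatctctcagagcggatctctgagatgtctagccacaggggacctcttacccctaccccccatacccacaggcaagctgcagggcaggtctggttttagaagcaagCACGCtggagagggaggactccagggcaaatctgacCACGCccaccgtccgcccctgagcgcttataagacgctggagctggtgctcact
Egln3: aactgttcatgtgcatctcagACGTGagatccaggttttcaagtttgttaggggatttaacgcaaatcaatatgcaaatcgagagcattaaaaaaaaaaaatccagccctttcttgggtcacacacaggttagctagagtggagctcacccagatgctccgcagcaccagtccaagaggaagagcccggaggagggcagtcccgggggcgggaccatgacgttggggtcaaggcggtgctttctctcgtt
Bnip3: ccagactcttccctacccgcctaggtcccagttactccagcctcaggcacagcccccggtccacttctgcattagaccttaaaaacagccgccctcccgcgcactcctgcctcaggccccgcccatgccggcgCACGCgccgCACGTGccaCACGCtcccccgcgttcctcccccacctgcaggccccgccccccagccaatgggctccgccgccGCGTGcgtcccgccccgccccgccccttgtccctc
The window of Adm held 2 matches, that of Egln3 1 and that of Bnip3 5. Of the 30 hypoxia targets, 20 had a window in the table used, and 19 of these 20 held at least 1 match, including 9 of the 9 risen ones. A gene with several annotated starts was counted where any of its windows held a match, and Vegfa, Kdm3a, Mxi1 and Pdk1 each also had a window with 0 matches. By the same count a match was held by 60.4% of 10843 tested genes, by 56.5% of 503 genes risen in OIR KO and by 52.2% of 626 fallen genes. A match is a description of the letters and not evidence of binding.

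Of 21 genes of glucose breakdown tested, 1 rose in OIR KO (4.76%, beside 4.75% of all genes) and 4 fell (19.0%, beside 5.69%, and 2 with only the 2 groups in the fit). Their median log2 difference from room air was 0.03, beside 0.50 for the other hypoxia targets, and the difference between the lists was not tested. The risen gene was Pfkp, the platelet type of phosphofructokinase, from 98.9 ± 11.7 to 175 ± 22.0 FPKM (log2 0.82, SE 0.12, adjusted p = 0.00430). The fallen ones were Pfkm, the muscle type of the same enzyme (log2 -0.67, adjusted p = 0.00943), Ldhb, a lactate dehydrogenase subunit (log2 -0.65, adjusted p = 0.0192), Hk2, hexokinase 2 (log2 -0.54, adjusted p = 0.0300), and Aldoc, an aldolase of neurons and glia (log2 -0.37, adjusted p = 0.0446). Hk2 was at 53.6, 45.7 and 49.3 FPKM in RA WT 1 to 3, at 27.6, 35.7 and 39.6 FPKM in OIR KO 1 to 3 and at 53.1, 61.4 and 56.5 FPKM in OIR WT 1 to 3. OIR KO was the lowest of the 3 groups for Hk2 without overlap, although its difference from OIR WT did not pass (log2 -0.74, adjusted p = 0.0842). In OIR WT, 11 members rose and 2 fell (median 0.50). OIR KO lay below OIR WT in 19 of 21 members, with 13 at an unadjusted p under 0.05 and 0 at the adjusted threshold of limma. Without single libraries the 4 fallen members became 1 (RA WT 3) or 2 (RA WT 2, OIR KO 1 or OIR KO 2). Pfkm was the fallen gene whose call stood throughout. Leaving out RA WT 2 or RA WT 3 ended the call of Ldhb (adjusted p = 0.0544 and 0.0726), that of Hk2 was lost without RA WT 1, RA WT 3, OIR KO 1 or OIR KO 2 (0.0647 to 0.0839), and that of Aldoc without RA WT 2, RA WT 3, OIR KO 1 or OIR KO 2 (0.108 to 0.144).

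Genes of tip cells and new vessels rose in 21 of 27 members in OIR KO and none passed the test downwards, with a median log2 difference of 1.43. Apln was at 2.05, 2.67 and 2.88 FPKM in RA WT 1 to 3 and at 19.7, 39.4 and 17.6 FPKM in OIR KO 1 to 3. Esm1 was nearly absent in room air, at 0.0221, 0.0453 and 0.0522 FPKM, and reached 3.03, 7.43 and 1.42 FPKM in OIR KO. Both genes were above room air in each knockout library and highest in OIR KO 2. Mcam, an adhesion molecule of growing vessels, rose, at 3.98 ± 0.608 FPKM in room air and 20.1 ± 8.70 FPKM in the knockout (log2 2.13, SE 0.28, adjusted p = 0.00420). Pgf, placental growth factor, a ligand of the VEGF receptor FLT1, had a log2 change of 2.02 (adjusted p = 0.0396), a call lost without each library but OIR KO 3 (0.0651 to 0.101). Without single libraries, 16 to 21 members of the list rose. In OIR WT, 22 of the 27 rose, also with a median of 1.43, and no member was called between the retinopathy groups (limma; 1 lower and 1 higher in OIR KO at an unadjusted p under 0.05).

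Further endothelial markers, of which the tip cell list shares only Robo4, rose in 10 of 22 members and 1 fell in OIR KO. Those risen most were Emcn, the mucin endomucin (log2 1.36, adjusted p = 0.0182), Cdh5, VE-cadherin (log2 1.31, adjusted p = 0.00618), Tie1, an orphan receptor kinase (log2 1.28, adjusted p = 0.00618), and Vwf, von Willebrand factor (log2 1.28, adjusted p = 0.0257). Cdh5 was at 2.89, 3.77 and 4.56 FPKM in RA WT 1 to 3, at 9.28, 12.5 and 8.26 FPKM in OIR KO 1 to 3 and at 7.45, 5.59 and 8.66 FPKM in OIR WT 1 to 3. The knockout values lay above room air and overlapped those of wild-type retinopathy. The fallen member was Ly6c1, a surface antigen of quiescent capillaries, at 17.1, 18.2 and 15.6 FPKM in RA WT and 5.57, 6.39 and 6.08 FPKM in OIR KO (log2 -1.42, SE 0.14, adjusted p = 0.00141). In OIR WT, 6 of the 22 rose and 2 fell. OIR KO lay above OIR WT in 20 of the 22. Of these, 3 had an unadjusted p under 0.05, to be read beside 9.91% of all genes, and 0 passed limma's adjusted test. The 10 risen members became 6 without RA WT 1, 4 without RA WT 3 or OIR KO 1 and 5 without OIR KO 2. Vwf was lost without each library but OIR KO 3 (adjusted p = 0.0510 to 0.0738), and Emcn without RA WT 3, OIR KO 1 or OIR KO 2 (0.0647 to 0.0718).

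Among 23 barrier genes 2 rose and 3 fell. Cldn5, the tight junction protein claudin 5, was at 17.5, 27.7 and 27.7 FPKM in RA WT 1 to 3, at 45.1, 39.9 and 37.2 FPKM in OIR KO 1 to 3 and at 27.5, 18.8 and 24.7 FPKM in OIR WT 1 to 3. OIR KO was the highest group without overlap (log2 0.76 against RA WT, adjusted p = 0.0360), but it did not pass against OIR WT (log2 0.78, adjusted p = 0.223). Plvap, a diaphragm protein of leaky capillaries, rose, at 2.56 ± 0.536 FPKM in room air and 5.10 ± 0.456 FPKM in the knockout (log2 0.88, SE 0.17, adjusted p = 0.0123). The fallen members were the transporters Slco1a4 and Slco1c1 (log2 -1.37, SE 0.19, adjusted p = 0.00430) and the proteoglycan gene Spock2 (log2 -0.92, SE 0.15, adjusted p = 0.00721). The fallen calls stood without each library in turn. The Plvap call was lost without OIR KO 1 (adjusted p = 0.0507) and that of Cldn5 without RA WT 1, RA WT 3, OIR KO 1 or OIR KO 2 (0.0605 to 0.113), so that the 2 risen members became 1 without RA WT 1, RA WT 3 or OIR KO 2 and 0 without OIR KO 1. In OIR WT, 2 barrier genes rose and 6 fell. OIR KO lay above OIR WT in 17 of the 23. At an unadjusted p under 0.05, 8 were higher and 1 lower in OIR KO, and 0 passed limma's adjusted test.

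Mural cells, matrix and dividing cells were represented among the risen genes. Of 15 pericyte and smooth muscle genes 6 rose and none fell at the threshold, with a median log2 difference of 0.89. The largest rise among them was that of Ndufa4l2, which the list of hypoxia targets also holds. Higd1b, a pericyte marker, was at 2.70, 2.22 and 2.001 FPKM in RA WT 1 to 3 and at 7.04, 9.41 and 7.63 FPKM in OIR KO 1 to 3 (log2 1.60, SE 0.14, adjusted p = 0.000868). Acta2, smooth muscle actin, had a log2 change of 1.42 (adjusted p = 0.0407) that was lost without each library but OIR KO 3 (0.0615 to 0.102). Without OIR KO 3, 10 pericyte genes rose. Of 33 matrix genes, 18 rose and 1 fell, and 12 to 19 rose without single libraries. Bgn, the proteoglycan biglycan (log2 2.27, SE 0.32, adjusted p = 0.00580), Col4a1, a basement membrane collagen (log2 1.90, adjusted p = 0.0101), Col1a1, a fibrillar collagen (log2 1.88, adjusted p = 0.00680), and Fn1, fibronectin (log2 1.79, adjusted p = 0.00872), rose most, and Mmp9, gelatinase B, fell (log2 -0.82, SE 0.11, adjusted p = 0.00373).

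Cell cycle genes rose in 14 of 29 members and 1 fell, with a median of 0.67. Top2a, a topoisomerase of dividing cells, was at 0.0310, 0.0579 and 0.0967 FPKM in RA WT 1 to 3 and at 1.35, 1.05 and 0.461 FPKM in OIR KO 1 to 3 (log2 1.32, SE 0.23, adjusted p = 0.00974). Levels were low in both groups, and the knockout values were above room air without overlap. Ube2c, a ubiquitin ligase of mitosis (log2 1.84), Prc1, a spindle protein (log2 1.41), and Rrm2, a subunit of ribonucleotide reductase (log2 1.39), rose too. The fallen member Spc25, a kinetochore subunit, was at 98.1, 119 and 82.7 FPKM in RA WT and at 46.2, 21.2 and 46.1 FPKM in OIR KO (log2 -1.46, adjusted p = 0.0417). The 14 risen genes became 9, 8 and 7 without RA WT 1, 2 and 3, 7 without OIR KO 1 and 6 without OIR KO 2, and 7 with a filter of 1 FPKM or 9 with only the 2 groups in the fit. The call of Spc25 was lost without each library but OIR KO 3 (adjusted p = 0.0684 to 0.103), and that of Prc1 without each library but OIR KO 1 (0.0653 to 0.0974).

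Microglia and macrophage genes rose in 15 of 29 members in OIR KO and none fell at the threshold, with a median log2 difference of 0.94. C1qb, a chain of the complement starter C1q made by microglia, was at 4.03, 4.45 and 4.70 FPKM in RA WT 1 to 3 and at 15.8, 14.8 and 12.7 FPKM in OIR KO 1 to 3 (log2 1.61, SE 0.12, adjusted p = 0.000439). It was among the same 5 risen genes of smallest p, and its knockout libraries were close together, OIR KO 2 included. Lyz2, lysozyme (log2 1.92, adjusted p = 0.00383), C1qa, another C1q chain (log2 1.64, adjusted p = 0.00425), and Spi1, the master factor of myeloid cells (log2 1.46, adjusted p = 0.00415), were the other leading members. The resident microglial receptors Cx3cr1 (log2 0.06, adjusted p = 0.90) and P2ry12 (log2 0.16, adjusted p = 0.807) did not pass the test. Without single libraries, 11 to 19 members rose. Of 20 genes of neutrophils and lymphocytes only Cd8a could be tested (log2 0.51, adjusted p = 0.0615), and the list summed to 0.842 to 1.41 FPKM in RA WT and 1.63 to 2.41 FPKM in OIR KO.

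Complement genes rose in 10 of 17 members, with a median of 0.77. C4b was at 0.392, 0.415 and 0.861 FPKM in RA WT 1 to 3 and at 7.67, 15.8 and 5.17 FPKM in OIR KO 1 to 3, all above room air. Beside it and the C1q chains, Serping1, the inhibitor of C1, had a log2 change of 1.89 (adjusted p = 0.0490), lost without each library but OIR KO 3 (0.0872 to 0.116). The 10 risen genes became 6 without RA WT 1 and 5 without RA WT 2, RA WT 3, OIR KO 1 or OIR KO 2. Of 8 testable genes of alternative macrophage activation, Stab1, a scavenger receptor (log2 1.5, adjusted p = 0.00415), and Tgfb1 (log2 1.18, adjusted p = 0.0324) rose and Lyve1, a hyaluronan receptor, fell (log2 -0.54, adjusted p = 0.0372). Stab1 stood with any 1 of the 6 libraries left out. Tgfb1 was lost without each but OIR KO 3 (adjusted p = 0.0625 to 0.0981) and Lyve1 without RA WT 1, RA WT 2, OIR KO 1 or OIR KO 2 (0.0942 to 0.117); with no filter, with only the 2 groups in the fit or with a Y-linked covariate 0 of these genes fell. Cytokines and chemokines were mostly below the filter: 14 of 26 were tested, the chemokine Ccl3 rose (log2 1.08, adjusted p = 0.0396) and the chemokine Cxcl16 fell (log2 -0.48, adjusted p = 0.0380). The call of Ccl3 was lost without each library but OIR KO 3 (adjusted p = 0.0717 to 0.115) and that of Cxcl16 without RA WT 2, RA WT 3, OIR KO 1 or OIR KO 2 (0.0961 to 0.126). The count of risen members depended on the setting: it was 5 without OIR KO 3 or with a pseudocount of 0.1, 2 with median scaling or with no trend and no robust option, and 0 with a pseudocount of 1, no filter, quantile normalization or a Y-linked covariate. With only the 2 groups in the fit or with the covariate 0 fell.

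Interferon-stimulated genes were higher in OIR KO than in RA WT in 26 of 26 members, and 13 rose, with a median log2 difference of 0.92. Irf7, the factor that amplifies interferon production, was at 7.03, 7.12 and 7.20 FPKM in RA WT 1 to 3, at 33.4, 26.9 and 21.2 FPKM in OIR KO 1 to 3 and at 17.1, 24.0 and 20.5 FPKM in OIR WT 1 to 3 (log2 1.84 for OIR KO against RA WT, SE 0.16, adjusted p = 0.000868). OIR KO lay above room air and overlapped OIR WT. Bst2, the antiviral membrane protein tetherin (log2 1.72, adjusted p = 0.00601), Ifit1, an RNA-binding antiviral protein (log2 1.52, adjusted p = 0.0150), and Oasl2, of the oligoadenylate synthetase family (log2 1.44, adjusted p = 0.00654), came next. In OIR WT, 9 of the 26 rose (median 0.59). OIR KO lay above OIR WT in 22 of the 26, with 6 at an unadjusted p under 0.05 and 0 past limma's adjusted threshold. The median of the list over the RA WT mean was 0.86, 1.37 and 0.49 in OIR KO 1 to 3 and 0.60, 0.38 and 0.90 in OIR WT 1 to 3, which overlap. The 13 risen genes became 5 without RA WT 1 or OIR KO 1, 6 without RA WT 3 and 4 without OIR KO 2. Ifit1 was lost without RA WT 3, OIR KO 1 or OIR KO 2 (adjusted p = 0.0503 to 0.0630).

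Reactive glia genes had large differences with wide spread. The median log2 difference of 29 members was 1.45, yet 6 rose, while 20 were higher at an unadjusted p under 0.05. The risen ones were Edn2, A2m, Emp1, an epithelial membrane protein (log2 2.15, adjusted p = 0.00772), Nes, the filament protein nestin (log2 1.62, adjusted p = 0.0351), Osmr, the receptor of oncostatin M (log2 1.58, adjusted p = 0.0308), and Stat3 (log2 1.45, adjusted p = 0.0197). Gfap, the filament of reactive Müller glia and astrocytes, was at 7.36, 6.78 and 17.7 FPKM in RA WT 1 to 3 and at 45.5, 173 and 24.3 FPKM in OIR KO 1 to 3 (log2 2.52, SE 0.75, adjusted p = 0.0695). The groups did not overlap, but OIR KO 2 was far above OIR KO 1 and 3 and the test was not passed. The median of the list over the RA WT mean was 1.05, 2.15 and 0.51 in OIR KO 1 to 3, against 1.61, 1.27 and 2.10 in OIR WT, where 18 rose. No member was called between the retinopathy groups (limma; 1 higher and 2 lower in OIR KO at an unadjusted p under 0.05). Without OIR KO 3, 12 members rose, without any single RA WT library, 3 rose, and 11 rose in a fit with no trend and no robust option. Nes was lost without each library but OIR KO 3 (adjusted p = 0.0544 to 0.0939), Osmr without any single one of the RA WT libraries or OIR KO 1 (0.0522 to 0.0974), and Stat3 without any single RA WT library (0.0522 to 0.0672).

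Genes of the STAT3 pathway, through which IL-19 signals, rose in 4 of 21 members and 1 fell in OIR KO. The risen ones were Edn2, Osmr, Stat3 and Junb, and the fallen one was Cntfr, the receptor of ciliary neurotrophic factor (log2 -0.64, adjusted p = 0.0201). Stat3 was at 13, 12.7 and 12.7 FPKM in RA WT 1 to 3, at 26.9, 58.3 and 28.9 FPKM in OIR KO 1 to 3 and at 48.8, 32.4 and 56.5 FPKM in OIR WT 1 to 3. Stat3 was above room air in each knockout library, and the retinopathy groups overlapped (difference of log2 -0.32, adjusted p = 0.776). Without any single RA WT library a single member rose, without OIR KO 1 there were 2, in a fit with no trend and no robust option 7 rose, and the Cntfr call was lost without RA WT 2, RA WT 3 or OIR KO 1 (adjusted p = 0.0607 to 0.0767). Immediate early genes, switched on within minutes of a stimulus, rose in 8 of 23 members, led by Junb (log2 1.91, adjusted p = 0.0277), Nr4a1, an orphan nuclear receptor (log2 1.70, SE 0.14, adjusted p = 0.000868), Egr1 (log2 1.48, adjusted p = 0.0197) and Fosb (log2 1.09, adjusted p = 0.0280). Nr4a1 was at 21.6, 27.4 and 24.7 FPKM in RA WT and at 76.7, 94.6 and 71.8 FPKM in OIR KO, and its call stood throughout. In OIR WT, 13 of the 23 rose, and OIR KO lay below OIR WT in 20 of the 23 (7 at an unadjusted p under 0.05, 0 past limma's adjusted threshold). The 8 genes risen in OIR KO became 3 without RA WT 1 or RA WT 3 and 4 without RA WT 2, OIR KO 1 or OIR KO 2. Junb was lost without each library but OIR KO 3 (adjusted p = 0.0551 to 0.0741), Egr1 without RA WT 1, RA WT 3 or OIR KO 1 (0.0518 to 0.0672) and Fosb without any single one of the RA WT libraries or OIR KO 2 (0.0539 to 0.0856).

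Homeostatic genes of Müller glia fell in 3 of 25 members and none rose at the threshold, with a median of -0.10. The fallen ones were Abca8a, a lipid transporter (log2 -0.96, adjusted p = 0.0213), Kcnj10, the potassium channel Kir4.1 that buffers retinal potassium (log2 -0.61, adjusted p = 0.0128), and Dkk3, a secreted protein of the Dickkopf family (log2 -0.46, adjusted p = 0.0357). Kcnj10 was at 16.3, 19.5 and 19.96 FPKM in RA WT 1 to 3, at 11.5, 12.4 and 12 FPKM in OIR KO 1 to 3 and at 9.69, 8.41 and 7.31 FPKM in OIR WT 1 to 3. The knockout values lay between the wild-type groups without overlap, though they did not pass the test against OIR WT (log2 0.48, adjusted p = 0.220). In OIR WT, 8 members fell and 3 rose, and OIR KO lay above OIR WT in 19 of 25 (8 at an unadjusted p under 0.05, 0 past limma's adjusted threshold). Of the 3 fallen genes, 1 was left without RA WT 2, OIR KO 1 or OIR KO 2 and 0 without RA WT 3. Abca8a was lost without RA WT 2, RA WT 3 or OIR KO 2 (adjusted p = 0.0605 to 0.0709), Kcnj10 without RA WT 3 (0.0509) or OIR KO 1 (0.0507), and Dkk3 without RA WT 2, RA WT 3, OIR KO 1 or OIR KO 2 (0.0953 to 0.118). Among 10 astrocyte genes Etnppl, an ethanolamine phosphate lyase, went from 3.22 ± 0.701 FPKM down to 1.07 ± 0.224 FPKM (log2 -1.24, SE 0.20, adjusted p = 0.00698), and leaving out OIR KO 3 gave 2 risen and 2 fallen astrocyte genes. Without the same library there were 2 risen genes of the Müller glia list.

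Markers of the inner retinal neurons made up the largest fallen lists. In bulk retina, fewer cells of a type and less RNA per cell cannot be told apart. Of 23 retinal ganglion cell markers, 14 fell and none rose at the threshold, with a median log2 difference of -0.76. Nefl, the neurofilament light chain of ganglion cell axons, was at 164, 156 and 200.1 FPKM in RA WT 1 to 3 and at 62.4, 50.5 and 81.2 FPKM in OIR KO 1 to 3 (log2 -1.43, SE 0.17, adjusted p = 0.00235). Its groups were well apart, with OIR KO 2 lowest. Nefm, the medium neurofilament chain (log2 -1.49, adjusted p = 0.00861), Chrna6, a nicotinic receptor subunit (log2 -1.38, adjusted p = 0.00315), and Pou4f3, a POU factor of ganglion cells (log2 -1.33, adjusted p = 0.00684), were the other leading members, and all 4 calls stood with any 1 of the 6 libraries left out. The pan-ganglion-cell marker Rbpms did not pass (log2 -0.48, adjusted p = 0.112). In OIR WT, 13 of the 23 fell (median -0.56), and OIR KO lay below OIR WT in 20 of the 23 (5 at an unadjusted p under 0.05, 0 past limma's adjusted threshold). The count of fallen members was 11 to 16 without single libraries.

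Amacrine cell markers fell in 14 of 26 members, with a median of -0.58. Calb2, the calcium-binding protein calretinin, was at 280.2, 347 and 383 FPKM in RA WT 1 to 3 and at 171, 116 and 186 FPKM in OIR KO 1 to 3 (log2 -1.11, SE 0.19, adjusted p = 0.00883). Gad1, which makes the transmitter GABA, was at 81.8, 83.6 and 79.7 FPKM in RA WT and at 41.8, 37.2 and 50.8 FPKM in OIR KO (log2 -0.92, SE 0.12, adjusted p = 0.00317). Both stayed below room air in each knockout library. Slc6a9, the glycine transporter of glycinergic cells (log2 -0.96, adjusted p = 0.00675), and Nos1, neuronal nitric oxide synthase (log2 -0.93, adjusted p = 0.00618), fell as well. The 14 fallen members became 9 without RA WT 3 or OIR KO 1 and 8 without OIR KO 2, while the calls of these 4 genes stood. In OIR WT, 14 of the 26 fell and 1 rose. Between the retinopathy groups 0 were called (limma, with 2 higher and 3 lower in OIR KO at an unadjusted p under 0.05).

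Bipolar cell markers fell in 8 of 26 members (median -0.26), led by Tacr3, the neurokinin 3 receptor of OFF bipolar cells, from 7.40 ± 0.266 to 3.08 ± 0.672 FPKM (log2 -1.16, SE 0.15, adjusted p = 0.00352), Scgn, secretagogin (log2 -0.91, adjusted p = 0.0152), Irx6, a homeobox factor (log2 -0.89, adjusted p = 0.00619), and Grik1, a kainate receptor subunit (log2 -0.83, adjusted p = 0.00494). Without RA WT 3 the count was 4, and Scgn was lost (adjusted p = 0.0632). Horizontal cell markers fell in 7 of 17 members (median -0.42). Gja10, the gap junction protein connexin 57 of horizontal cells, was at 1.23, 1.27 and 1.79 FPKM in RA WT 1 to 3 and at 0.329, 0.322 and 0.589 FPKM in OIR KO 1 to 3 (log2 -1.08, SE 0.20, adjusted p = 0.0120), without overlap. Beside it and Nefm, which the ganglion cell list also holds, Calb1, calbindin (log2 -0.83, adjusted p = 0.00596), and Cacng3, an AMPA receptor auxiliary subunit (log2 -0.73, adjusted p = 0.00883), fell. Without RA WT 3 or OIR KO 2, 4 horizontal cell genes fell, and 4 also with only the 2 groups in the fit.

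Of 26 rod markers 1 fell, a share of 3.85% beside 5.69% of all genes, and the median was -0.02. The fallen one was Guca1a, a calcium sensor of phototransduction, at 362, 385 and 449 FPKM in RA WT 1 to 3, at 221, 197 and 261 FPKM in OIR KO 1 to 3 and at 147, 192 and 155 FPKM in OIR WT 1 to 3 (log2 -0.82 for OIR KO against RA WT, SE 0.14, adjusted p = 0.00826). OIR KO was below room air and above OIR WT without overlap, a difference that did not pass against OIR WT (log2 0.46, adjusted p = 0.331). Of 18 cone markers 3 fell, a share of 16.7%: Rxrg, a retinoid receptor (log2 -0.76, adjusted p = 0.0143), Slc24a2, the cone calcium exchanger (log2 -0.64, adjusted p = 0.00654), and Gulo, the last enzyme of vitamin C synthesis (log2 -0.49, adjusted p = 0.0336). Without RA WT 3 only Slc24a2 was left. Rxrg was then at an adjusted p of 0.0562, and Gulo was lost without each library but OIR KO 1 (0.0518 to 0.114). Genes of sterol synthesis and its regulation fell in 7 of 24 members (median -0.33), with Insig1, a sensor of sterol supply, from 25.3 ± 2.59 to 10.5 ± 2.22 FPKM (log2 -1.24, SE 0.14, with an adjusted p of 0.00192), and Srebf2, the master factor of the pathway (log2 -0.66, adjusted p = 0.00708). The count was 4 without RA WT 3 or OIR KO 1 and 3 without OIR KO 2, while the calls of Insig1 and Srebf2 stood with any 1 of the 6 libraries left out.

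Red cell genes separated the knockout libraries from each other. Hbb-bs, an adult beta globin, was at 28.2, 26.1 and 45.3 FPKM in RA WT 1 to 3, at 44.3, 418 and 37.9 FPKM in OIR KO 1 to 3 and at 431, 156 and 509 FPKM in OIR WT 1 to 3. OIR KO 1 and 3 were thus in the range of room air and OIR KO 2 in that of wild-type retinopathy. Summed over the 9 genes in the table, red cell transcripts came to 114 to 186 FPKM in RA WT, to 142, 1102 and 140.1 FPKM in OIR KO 1 to 3 and to 538 to 1466 FPKM in OIR WT. None of the 6 tested members changed in OIR KO against RA WT (limma; 0 at an unadjusted p under 0.05), while 5 rose in OIR WT; OIR KO did not pass the test against OIR WT in any of the 6 (3 at an unadjusted p under 0.05). The part of blood in the results above was not tested. The same library was the highest of the 3 for the medians of hypoxia, tip cell, gliosis and interferon genes and the lowest for ganglion, amacrine and rod genes, as the plot of list levels by library shows. The median of microglia genes was at 1.00, 1.00 and 0.69 in OIR KO 1 to 3, so that OIR KO 2 lay with OIR KO 1. Markers of the pigment epithelium (13 tested), lens (8) and mitochondrially encoded genes (13) held 0 called members in limma's test (at an unadjusted p under 0.05, 1 lower in each list), and of 9 markers of ciliary body, iris and cornea 1 rose, the keratin Krt18 (log2 0.96, SE 0.10, adjusted p = 0.00141).

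**Figure D4:**
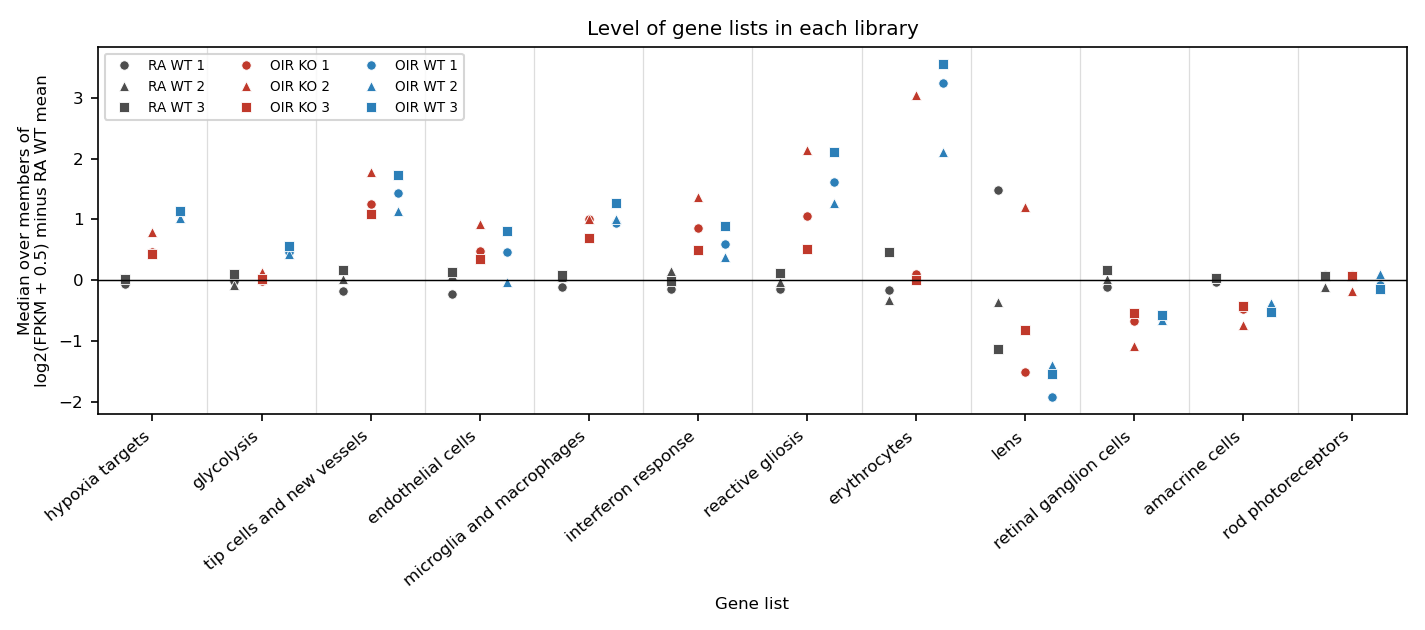
Median over the tested members of a list of log2(FPKM + 0.5) minus the RA WT mean, with 1 point per library (circle, triangle and square for libraries 1, 2 and 3 of a group). OIR KO 2 (red triangle) is apart from OIR KO 1 and 3 for red cell genes, at 3.04 against 0.10 and 0.00, and for lens genes, at 1.20 against -1.51 and -0.82, and lies highest for gliosis genes, at 2.15.

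Between OIR KO and OIR WT, which differ in genotype under the same exposure label, 21 genes were called, 9 higher and 12 lower in OIR KO, and 1554 (9.91%) had an unadjusted p under 0.05. The count was 12 without OIR KO 1, 42 without OIR KO 2 and 11 without OIR KO 3, OIR WT 1 or OIR WT 3. Of the 21 genes, 13 had also changed in OIR KO against RA WT. Crb1, a polarity protein at the outer limiting membrane, was at 63.6, 56.3 and 56.5 FPKM in RA WT 1 to 3, at 33.2, 29.0 and 31.0 FPKM in OIR KO 1 to 3 and at 57.9, 66.8 and 58.9 FPKM in OIR WT 1 to 3. Both wild-type groups overlapped and the knockout was lower than either (log2 -0.91 against RA WT, adjusted p = 0.00141, and -0.97 against OIR WT, adjusted p = 0.00334). Vps39, a tethering subunit of late endosomes, was at 17.8, 18.2 and 18.6 FPKM in RA WT, at 9.54, 10.2 and 9.17 FPKM in OIR KO and at 18.9, 17.1 and 19.3 FPKM in OIR WT. It had the same order of groups (log2 -0.89 against RA WT, adjusted p = 0.00120, and -0.90 against OIR WT, adjusted p = 0.00250). Entpd4b, a nucleotide phosphatase with near-identical neighbours, was low in OIR KO as well (log2 -1.07, adjusted p = 0.00141, and -1.36, adjusted p = 0.00155). Usp2, a ubiquitin protease of the circadian clock, and Dynlt1b, a dynein light chain with near-identical copies, were highest in OIR KO. Usp2 was at 33.1, 35.98 and 38.8 FPKM in RA WT, at 51.0, 50.04 and 50.9 FPKM in OIR KO and at 34.2, 34.6 and 28.6 FPKM in OIR WT (log2 0.49 against RA WT, adjusted p = 0.0133, lost without OIR KO 1 at 0.0507). Its difference from OIR WT (log2 0.64, adjusted p = 0.0476) was lost without each of the 6 retinopathy libraries in turn (0.0671 to 0.229), as was that of Dynlt1b (log2 0.54, adjusted p = 0.0476, lost at 0.0569 to 0.229), whereas Crb1, Vps39 and Entpd4b stood.

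The other 8 genes called against OIR WT had not changed in OIR KO against RA WT, and all 8 had changed in OIR WT against RA WT. Rab22a, a small GTPase of early endosomes, was at 6.42, 7.09 and 7.46 FPKM in RA WT 1 to 3, at 6.33, 6.94 and 5.93 FPKM in OIR KO 1 to 3 and at 2.21, 2.33 and 1.78 FPKM in OIR WT 1 to 3. Knockout and room air overlapped (log2 -0.12, adjusted p = 0.577), and the knockout lay above wild-type retinopathy (log2 1.41, adjusted p = 0.00205). Hif3a, an inhibitory member of the hypoxia-inducible factor family, was at 3.83, 3.85 and 4.66 FPKM in RA WT, at 5.27, 4.94 and 5.36 FPKM in OIR KO and at 1.76, 2.33 and 1.75 FPKM in OIR WT. It was highest in OIR KO without overlap, which passed against OIR WT (log2 1.22, adjusted p = 0.00610) and not against RA WT (log2 0.31, adjusted p = 0.171). Ip6k2, an inositol phosphate kinase, and Ipo9, a nuclear import receptor, had the same order, with log2 differences from OIR WT of 0.95 (adjusted p = 0.0374) and 0.51 (adjusted p = 0.0489). The call of Ipo9 was lost without each retinopathy library (adjusted p = 0.0695 to 0.253) and that of Ip6k2 without OIR KO 1, OIR KO 3, OIR WT 1 or OIR WT 3 (0.110 to 0.161). Tmem254a was listed at 0 in every OIR KO and RA WT library and lay between 2.95 and 5.64 FPKM in OIR WT, and Cldn34c2 was listed at 0 in every OIR WT library and lay between 0.740 and 1.15 FPKM in OIR KO; both belong to families of near-identical copies. The call of Cldn34c2 was lost without OIR KO 1, OIR WT 1 or OIR WT 3 (adjusted p = 0.0535 to 0.0589).

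**Figure D5:**
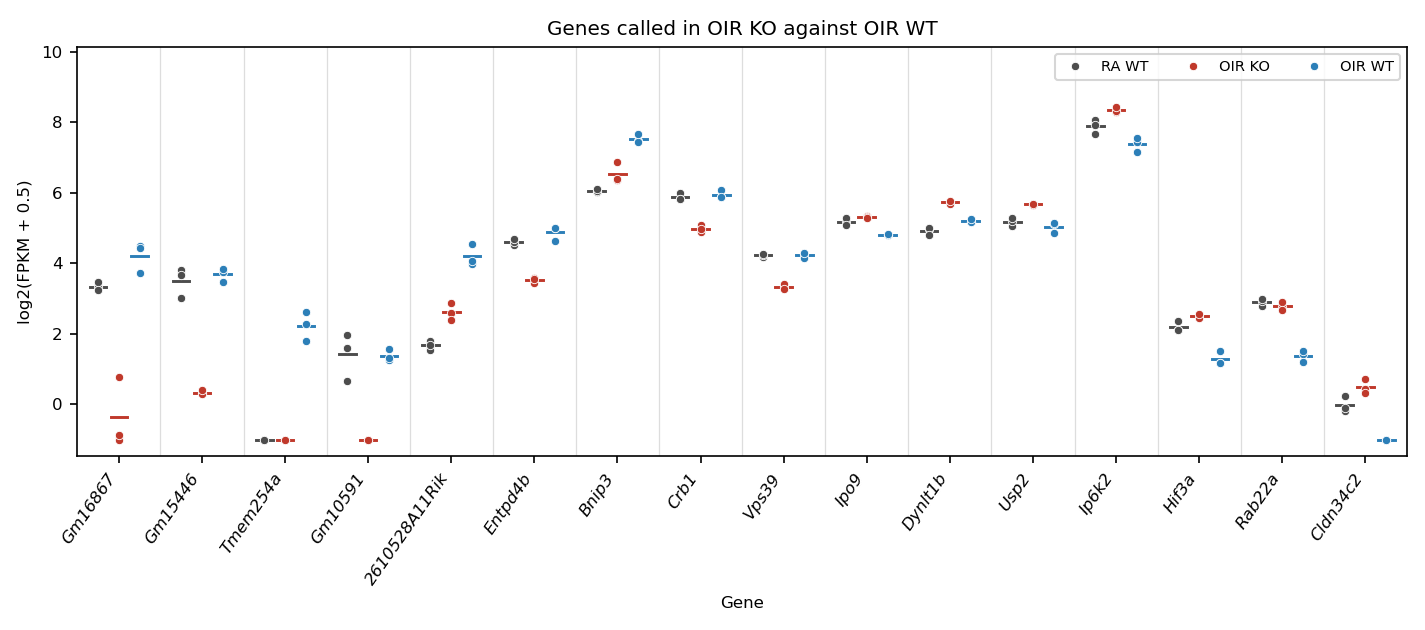
Level of the 16 genes with an Ensembl ID that were called in OIR KO against OIR WT, as log2(FPKM + 0.5), with 1 point per library and a line at the group mean (n = 3), ordered by the log2 difference from OIR WT. For Crb1 and Vps39 the red OIR KO points lie below both wild-type groups, and for Rab22a they lie with the grey RA WT points, between 5.93 and 6.94 FPKM.

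Among these genes Crb1 and Ipo9 lie on chromosome 1, 8.26 and 4.44 megabases from Il19 (GRCm38 chromosome 1, 139197056 to 139377100 for Crb1 and 135382312 to 135430499 for Ipo9). Within 10 megabases of Il19, 106 genes were tested. Of these, 16 (15.1%) changed in OIR KO against RA WT, beside 10.4% of all genes, and 2 (1.89%) were called against OIR WT, beside 0.134%. Within 2 megabases 4 of 30 genes (13.3%) changed against RA WT and 0 were called against OIR WT, within 5 megabases these counts were 13 (15.7%) and 1 of 83, and within 20 megabases 17 (12.6%) and 2 of 135. Lad1 and Tnnt2 lie in the same interval, at 135818598 to 135833342 and 135836354 to 135852260, but neither was called between OIR KO and OIR WT. This region was looked at after the values were seen.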

How the data were processed

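Retinal RNA of 9 libraries in 3 groups of 3 was sequenced, and the authors deposited a table of FPKM per gene. Reads were aligned with HISAT2 to GRCm38, per the submitters' processing notes. The program that computed FPKM, its annotation and the strand setting were not stated (not given in the sources used here), so overlapping genes and near-identical copies are uncertain. Depth is unknown: 44.5% to 47.2% of low values came within 0.05 of whole reads, so reads were not recovered and no count test was run.

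Genes with at least 0.5 FPKM in at least 3 libraries were tested on log2(FPKM + 0.5) with limma 3.58.1 (R 4.3.3), with 1 mean per group over all 9 libraries, a trended and robust prior and Benjamini-Hochberg adjustment over 15678 genes. Log2 differences are on that scale and understate changes of low genes. Il19 was tested by exact permutation (scipy 1.17.1). On simulated data for this comparison (15678 genes), 77% of changes of log2 1 and 98% of changes of log2 2 were recovered, with 15 false calls. The simulated noise was independent between genes, only a small set of genes was changed, and no library stood apart as OIR KO 2 does. These figures are therefore a check of the procedure and not error rates of the measured comparison.

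The genes of the comparison and the gene lists were chosen with earlier results of these data known. Named were the interleukin-10 family, the 10 risen and 10 fallen genes of largest change (mean of at least 1 FPKM, no overlap, ordinary symbol), up to 4 called members per list and direction and all members of a count of 5 or fewer, the 5 genes of smallest p per direction, the genes of smallest p against OIR WT, and the checks of libraries. Vegfa, Gfap, Hbb-bs, Cx3cr1, P2ry12, Rbpms, Cd8a, Car12 and the genes with Gm or Rik names were named after their values were seen. Some genes that the rule names are not reported here. Gene positions came from GENCODE and promoters from RefSeq, both on GRCm38. Alternatives were other pseudocounts, filters, scalings and priors, a fit of the compared groups alone, a Y-linked covariate, the replicate number as a block, and leaving out each library.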

Additional observations from a re-analysis of the deposited data

Results flagged for a closer look

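The following 16 genes differed between the retinopathy groups by a test of that difference itself (limma, OIR KO against OIR WT, adjusted p under 0.05). Both groups had been set against the same RA WT libraries. Values are log2 differences of OIR KO from OIR WT, and no explanation was tested.

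Crb1 (-0.97), Vps39 (-0.90) and Bnip3 (-0.98) were lower in OIR KO. So was Entpd4b (-1.36), which has near-identical neighbours. Rab22a (1.41), Hif3a (1.22), Ip6k2 (0.95), Usp2 (0.64) and Ipo9 (0.51) were higher, as were Dynlt1b (0.54) and Cldn34c2 (1.49), both with near-identical copies.

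The genes of largest difference carry provisional names or have near-identical copies, so that reads may be split between copies. Gm16867 differed by -4.59 and was at 9.46, 10.5 and 8.96 FPKM in RA WT 1 to 3, at 0, 1.20 and 0.0491 FPKM in OIR KO 1 to 3 and at 22.1, 12.7 and 21.2 FPKM in OIR WT 1 to 3. Gm15446 differed by -3.35 and was at 0.744, 0.720 and 0.816 FPKM in OIR KO against 7.58 to 13.8 FPKM in the wild-type libraries. Both were low in each knockout library and in no wild-type library. Gm10591 differed by -2.38 and had a listed value of 0 in each OIR KO library, a call lost without each retinopathy library but OIR KO 2 (adjusted p = 0.0508 to 0.0710). Tmem254a differed by -3.23 and was listed at 0 in OIR KO and in RA WT. The gene 2610528A11Rik differed by -1.59 and lay between 2.42 and 2.95 FPKM in RA WT, between 4.75 and 6.78 FPKM in OIR KO and between 15.4 and 23.1 FPKM in OIR WT, without overlap between any of the groups.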

How the results depend on the processing

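With 3 libraries a group and unknown depth, small changes of low genes were not detectable. Against RA WT, 1636 genes were called, and 1388 to 1676 under 8 of the 10 other settings. Leaving out 1 library gave 709 to 1791 in all, 284 to 850 risen and 414 to 941 fallen, and 118 to 231 list members called against 199. With only the 2 groups in the fit, 1103 were called, of which 481 rose against 744.

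Same-numbered libraries did not deviate together. Correlations were -0.151 to -0.0166 between RA WT and OIR KO and -0.353 to -0.00489 between OIR WT and OIR KO. With so few libraries these values cannot exclude a shared preparation, and whether the numbers mark a pairing is unknown. With the replicate block 1081 genes were called, of which 411 rose, and 8 against OIR WT. In that fit 8 interferon, 6 complement, 3 gliosis, 8 cell cycle, 5 immediate early, 1 STAT3 pathway, 1 barrier, 1 alternative macrophage and 1 Müller glia genes rose, and 4 horizontal cell and 2 glycolysis genes fell. The calls of Ccl3, Cxcl16, Lyve1 and Spc25, the sole called members of their list and direction, were lost in it.

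Against OIR WT, the 21 genes became 13 with a filter of 1 FPKM, 13 with no trend and no robust option, and 11 to 42 without single libraries. Of the named genes that were called, 110 against RA WT and 12 against OIR WT, none reversed its direction under a setting tried. All 1636 genes called against RA WT had groups without overlap, so leaving out 1 library could not reverse them. Of the 110, 70 kept their call without each library in turn and 83 kept it under all the other settings. Of the 12 called against OIR WT, 6 and 5 did. Named genes that were not called were not checked for a reversal. The cause of these shifts was not tested.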
